A study of Mus musculus with 19 samples.

Results

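The genes of the mouse mitochondrial genome were taken as all genes that the deposited count files place on chromosome MT, which gave 37 of the 55536 genes in the files. They comprise 13 mRNAs, 2 rRNAs and 22 tRNAs. Total RNA of heart ventricle was sequenced from Mpc1 knockout mice and wild-type mice, in which Mpc1 encodes a subunit of the carrier that brings pyruvate into mitochondria. The knockout was heart specific and induced in adult animals, and the labels give neither the driver of the deletion nor age, sex or strain. By Xist and Y-linked transcripts 17 of the 19 libraries were female, and 1 KO-16 and 1 WT-16 library were male. The groups were Mpc1 knockout 8 weeks after induction (KO-8, 4 libraries), wild type at 8 weeks (WT-8, 5 libraries), Mpc1 knockout at 16 weeks (KO-16, 5 libraries) and wild type at 16 weeks (WT-16, 5 libraries). Nothing in the labels ties the libraries to separate animals, so p-values measure only the spread between libraries, which may be technical.

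The mitochondrial genome is a small circle that encodes core subunits of the respiratory chain and of ATP synthase, together with the rRNAs and tRNAs that translate them inside the organelle. Both strands are copied as long transcripts, and the tRNAs that lie between most of the other genes mark where these are cut into separate RNAs. All other proteins of the organelle, including the RNA polymerase, the processing enzymes and the pyruvate carrier, are encoded in the nucleus. Heart muscle is dense in mitochondria, and mitochondrial RNA makes up a large part of its RNA.

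Counted read pairs, in M (mega), numbered 16.5 to 19.5 in the KO-8 libraries, 17.4 to 27.5 in WT-8, 9.54 to 26.9 in KO-16 and 8.63 to 19.7 in WT-16. Ribosomal RNA had been depleted before library preparation, but a gene annotated on cytoplasmic 18S rRNA (CT010467.1) still took 12.7%, 1.71%, 5.66%, 30.0% and 26.1% of all counts in KO-16 replicates 1 to 5, and 39.1%, 25.2%, 6.88%, 23.2% and 29.7% in WT-16 replicates 1 to 5. At 8 weeks its share was 0.0666% in KO-8 replicate 4, 0.000652% to 0.000865% in KO-8 replicates 1 to 3 and at most 0.000956% in WT-8. Levels are therefore given as CPM, counts of a gene per 1000000 counts outside rRNA genes, and a second measure, the percentage of the counts of all 37 mitochondrial genes, does not depend on the nuclear RNAs. Mpc1 itself had 13.8 to 19.8 CPM in KO-8 against 102.3 to 127.1 CPM in WT-8, and 12.9 to 32.0 CPM in KO-16 against 65.2 to 100.3 CPM in WT-16, with no overlap at either time. The ventricular light chain Myl2 had 4149 CPM or more in every library, and the atrial markers Sln and Myl7 reached at most 22.1 and 64.4 CPM in KO-16 and at most 27.8 and 119.5 CPM in WT-16. Summed over 5 atrial markers, which include the stress-responsive gene Nppa, the level was 280.3 to 3277 CPM in KO-16 against 28.8 to 748.5 CPM in WT-16. At 8 weeks the sum was 182.8 to 340.0 CPM in KO-8 against 39.1 to 80.2 CPM in WT-8. Of these markers edgeR called Nppa higher at each time, and limma-voom called it at 8 weeks only. The 6 cardiomyocyte markers summed to 52758 to 60467 CPM in KO-8 against 58491 to 64391 CPM in WT-8, where edgeR called 2 lower (0 with all 19 libraries in 1 fit), and to 33031 to 52030 CPM in KO-16 against 41136 to 55310 CPM in WT-16, where edgeR and limma-voom called 0, DESeq2 called 2 and edgeR with all 19 libraries in 1 fit called 3. Markers of other cells were also called by edgeR on each time alone. Summed over 5 markers each, fibroblast genes had 758.2 to 1202 CPM in KO-8 against 656.1 to 717.6 CPM in WT-8 (2 called higher) and 513.7 to 1364 CPM in KO-16 against 345.2 to 564.5 CPM in WT-16 (3 called higher). Endothelial genes had 845.1 to 932.5 CPM in KO-8 against 730.7 to 836.3 CPM in WT-8, and 550.2 to 984.9 CPM in KO-16 against 393.1 to 611.7 CPM in WT-16 (2 called higher at each time). Among smooth muscle and pericyte markers 2 were higher at each time, of the skeletal muscle markers Acta1 was higher at each time, 1 macrophage marker was higher at 8 weeks, and of the erythroid markers 1 was lower at 8 weeks and 1 higher at 16 weeks. Over all genes, edgeR on each time alone called 7.56% at 8 weeks and 4.26% at 16 weeks. At 16 weeks limma-voom called 0 fibroblast, 0 endothelial and 0 smooth muscle and pericyte markers, against 0.252% of all genes. DESeq2 called 3, 2 and 2 of them, against 9.4%. With TMM normalization factors edgeR called 2, 1 and 1, against 2.78%. At 16 weeks the median log2 fold change of KO over WT over all genes was 0.26 in CPM and 0.02 with TMM factors. With all 19 libraries in 1 fit, 3, 5 and 4 were called at 16 weeks, against 26.5% of all genes. That fit called 0 of each at 8 weeks, against 0.126% of all genes. The part of these markers in the mitochondrial values was not tested.

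Copies of the mitochondrial genome in nuclear DNA are annotated as pseudogenes, and mitochondrial genes differ in how far their sequence recurs there. The following stretches of GENCODE M21 transcripts (GRCm38) show the range, each mitochondrial gene above its closest nuclear copy, with differing bases in capitals. The pairs are the first 90 bases of mt-Co2, which encodes a subunit of cytochrome c oxidase (MT:7013-7102, plus strand) and of Gm28661 (chr1:24615476-24615565, minus strand), the first 90 bases of the complex I gene mt-Nd3 (MT:9459-9548, plus) and of Gm28438 (chr1:24613030-24613119, minus), and a stretch near the start of the cytochrome b gene mt-Cytb (MT:14146-14235, plus) and of Gm11410 (chr4:80003990-80004079, plus).
mt-Co2: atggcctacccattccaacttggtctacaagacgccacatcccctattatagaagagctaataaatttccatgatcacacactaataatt
Gm28661: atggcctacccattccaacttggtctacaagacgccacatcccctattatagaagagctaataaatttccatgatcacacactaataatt
mt-Nd3: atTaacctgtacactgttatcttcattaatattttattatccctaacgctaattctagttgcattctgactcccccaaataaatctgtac
Gm28438: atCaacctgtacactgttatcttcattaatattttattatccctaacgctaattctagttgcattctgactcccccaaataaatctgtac
mt-Cytb: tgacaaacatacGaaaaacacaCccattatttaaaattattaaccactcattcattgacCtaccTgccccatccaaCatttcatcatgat
Gm11410: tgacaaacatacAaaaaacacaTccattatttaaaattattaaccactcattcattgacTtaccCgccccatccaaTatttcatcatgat
Counted from the first printed base, the mt-Co2 pair differed at 0 positions, the mt-Nd3 pair at 1 (T3C, mitochondrial base first) and the mt-Cytb pair at 5 (G13A, C23T, C60T, T65C and C77T). Over the whole alignments, identity was 100.0% for mt-Co2, 99.7% for mt-Nd3 and 92.9% for mt-Cytb.

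Of the 13 mRNAs 7 were well counted and 6 were nearly uncounted, and 5 of the 6 are copied almost whole in the nucleus. Of all 51-base windows, the length of a read, 100.0% of mt-Co2, 99.5% of mt-Atp6, 99.9% of mt-Co3, 98.0% of mt-Nd3 and 98.8% of mt-Nd4l occurred exactly in a nuclear transcript. These 5 genes, which encode subunits of cytochrome c oxidase, ATP synthase and complex I, had between 0.469 and 97.9 CPM in any library. By contrast the shared windows were 62.2% in mt-Nd4, 50.6% in mt-Co1, 8.0% in mt-Nd2, 7.2% in mt-Nd5 and 0.0% in mt-Nd1, mt-Nd6 and mt-Cytb, and the levels of these 7 countable mRNAs ran from 385.4 CPM (mt-Nd6 in WT-8) to 131566 CPM (mt-Co1 in KO-16). The file headers record no option to count reads that map to several places. A 51-base read within a shared window does not by itself tell the copies apart. The levels of mt-Co2, mt-Atp6, mt-Co3, mt-Nd3 and mt-Nd4l therefore cannot be read as levels of the RNA. Those of mt-Co1 and mt-Nd4 may rest largely on the part of each gene that is not shared. The mt-Co2 copy Gm28661 had 102 to 8092 counts in a library, and mt-Co2 had 9 to 268. The part of shared sequence in the low counts was not tested.

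**Figure D1:**
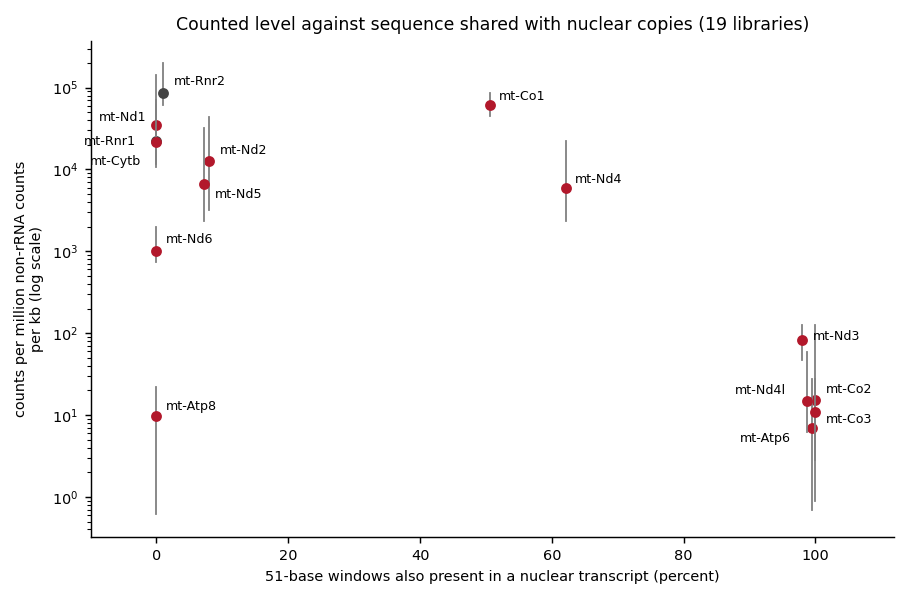
CPM over non-rRNA counts per kb of gene (log axis) against the percentage of 51-base windows that occur exactly in a nuclear transcript, for the 13 mRNAs (red) and 2 rRNAs (grey); points are medians and lines the range over 19 libraries. The 5 mRNAs at 98.0% or more have medians from 6.96 to 83.4 per kb, and mt-Atp8 is the only gene with 0.0% shared windows that lies among them.

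The other nearly uncounted mRNA, mt-Atp8, for a small ATP synthase subunit (MT:7766-7969, plus strand, 204 bases), had 0.135 to 0.289 CPM in KO-8, 0.126 to 0.405 CPM in WT-8, 2.01 to 4.53 CPM in KO-16 and 2.4 to 4.2 CPM in WT-16, although none of its windows was found in a nuclear transcript. It lies between mt-Co2 and mt-Atp6, which are 230 bases apart. Their copies Gm28661 and Gm10925 on chromosome 1 are 233 bases apart with no transcript annotated between them, and that genomic sequence was not used here. The last 72 bases of mt-Atp8 (MT:7898-7969) show how tightly it is packed, since the 43 bases in capitals are also the start of mt-Atp6.
mt-Atp8 end: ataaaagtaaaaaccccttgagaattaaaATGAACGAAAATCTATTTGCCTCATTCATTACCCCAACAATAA
Likewise mt-Nd4l shares 7 bases with mt-Nd4, and mt-Nd6 lies antisense to 14 bases of mt-Nd5. The counting was stranded per the file headers.

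Per kb of gene, mt-Co1, the catalytic subunit of cytochrome c oxidase, was the most abundant of the 7 countable mRNAs in each group. It made up 59.3 ± 2.18% of the mRNA counts per kb in KO-8 (SD, n = 4), 57.8 ± 1.99% in WT-8, 39.4 ± 6.76% in KO-16 and 28.5 ± 2.81% in WT-16 (n = 5 each). The complex I subunit mt-Nd1 and mt-Cytb, of complex III, came next. On the same scale mt-Nd1 had 15.1% in KO-8, 16.3% in WT-8, 20.2% in KO-16 and 20.7% in WT-16, and mt-Cytb had 14.6%, 14.3%, 18% and 21.1% in the same groups. With SDs of 0.361 to 3.79 points, these neighbours did not differ beyond their spread in any group other than WT-8, where mt-Nd1 exceeded mt-Cytb by more than either SD (1.44 and 0.767 points). Below them on this scale came mt-Nd2, mt-Nd5 and mt-Nd4, also of complex I. The scale divides by the whole gene length, although 62.2% of the windows of mt-Nd4 and 50.6% of those of mt-Co1 were shared. The place of mt-Nd4 and the percentages of mt-Co1 therefore depend on how shared sequence was counted, which was not tested. At 8 weeks mt-Nd2 had 4.18% in KO-8 and 4.38% in WT-8, mt-Nd4 had 2.96% and 2.94%, and mt-Nd5 had 2.84% and 3.13%. At 16 weeks mt-Nd2 had 10.4% in KO-16 and 13.1% in WT-16, mt-Nd4 had 5.04% and 6.18%, and mt-Nd5 had 6.32% and 9.73%. The light-strand gene mt-Nd6 was lowest among the countable mRNAs, at 0.959% in KO-8, 0.998% in WT-8, 0.569% in KO-16 and 0.639% in WT-16. Counts on its strand, which also carries 8 tRNAs, were 0.0978% to 0.238% of mitochondrial counts in every library.

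At 8 weeks the mitochondrial mRNAs overlapped between KO and WT hearts. Summed over the 13, they took 13.4%, 11.1%, 12.8% and 14.5% of non-rRNA counts in KO-8 replicates 1 to 4, and 13.3%, 11.1%, 14.4%, 12.4% and 12% in WT-8 replicates 1 to 5, with KO-8 replicate 4 just above the highest WT-8 library. No p is given for this sum. In such bulk samples fewer cells of a type and less RNA per cell cannot be told apart. For mt-Co1 the values were 89162, 74333, 88674 and 93317 CPM in KO-8, against 88760, 69772, 94787, 84224 and 77302 CPM in WT-8. The largest complex I mRNA, mt-Nd5 (MT:11742-13565, plus), had 4654, 4570, 4336 and 6022 CPM in KO-8, against 5259, 5595, 5709, 4358 and 5369 CPM in WT-8. Tests used edgeR's quasi-likelihood method on the counts, with Benjamini-Hochberg adjustment over all genes tested. The log2 fold changes were 0.06 for mt-Co1 (SE 0.09, adjusted p = 0.754) and -0.10 for mt-Nd5 (SE 0.10, adjusted p = 0.591). Those of mt-Nd1, mt-Nd2, mt-Nd4, mt-Nd6 and mt-Cytb lay between -0.08 and 0.05, with SEs of 0.10 to 0.13.

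**Figure D2:**
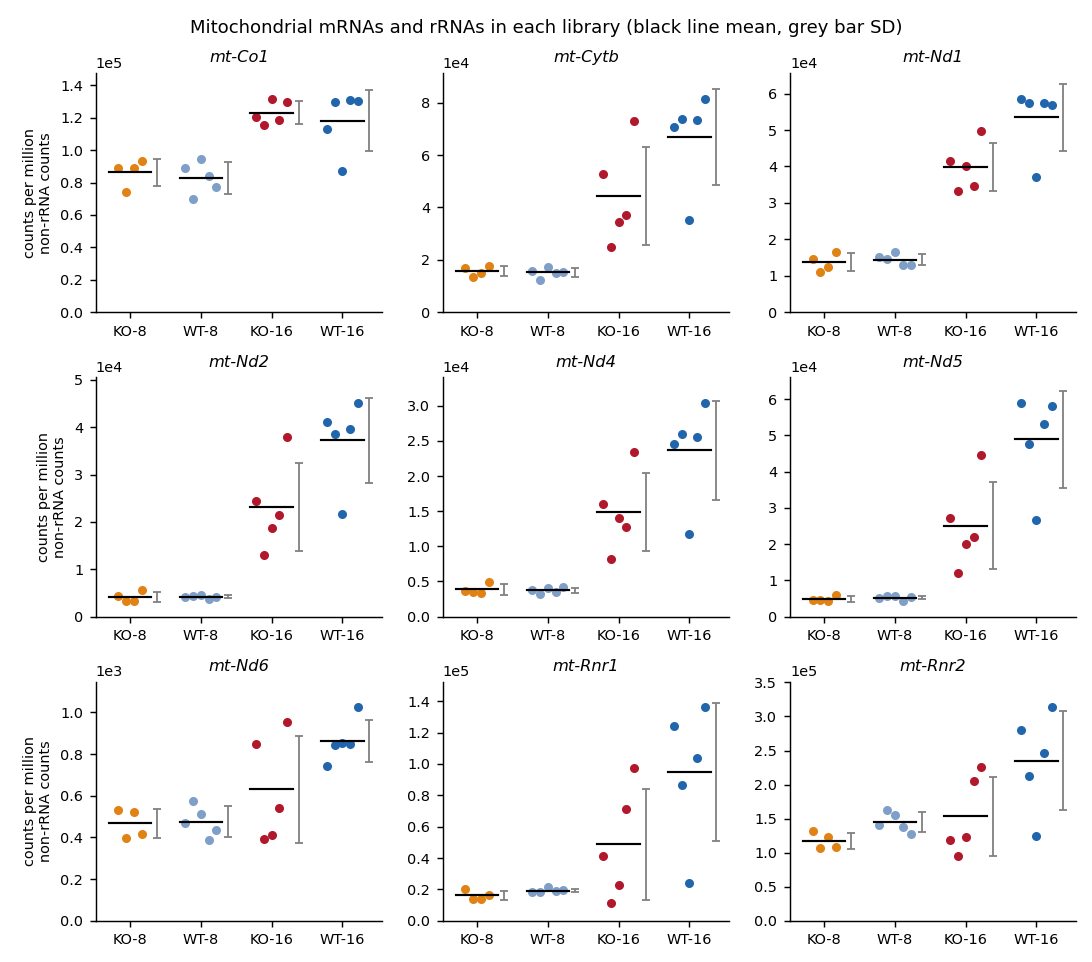
CPM over non-rRNA counts of 7 mRNAs and 2 rRNAs in each library (points), by group, with the group mean (black line) and SD (grey bar). KO-8 and WT-8 libraries overlap in every panel, and KO-16 libraries spread widely, for mt-Nd5 between 12146 and 44572 CPM against 26530 to 58913 CPM in WT-16.

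Of 21 mitochondrial genes tested at 8 weeks, 2 passed an adjusted p of 0.05, against 7.56% of all 15159 genes. The large-subunit rRNA mt-Rnr2 (MT:1094-2675, plus) fell, with 131615, 106160, 122429 and 107882 CPM in KO-8 against 140358, 162798, 155714, 137431 and 126919 CPM in WT-8. Its log2 fold change was -0.31 (SE 0.08, edgeR adjusted p = 0.0341), and 1 KO-8 library lay within the WT-8 range. The call was lost without any of WT-8 replicates 1 to 4, KO-8 replicate 2 or KO-8 replicate 4 (adjusted p 0.0535 to 0.0844), and with all 19 libraries in 1 edgeR fit (adjusted p = 1). At 8 weeks that 19-library fit called 0.126% of all genes. The small-subunit rRNA mt-Rnr1 had 16128 ± 2945 CPM in KO-8 and 19299 ± 1197 CPM in WT-8 (SD, n = 4 and 5), and its log2 fold change was -0.26 (SE 0.10, adjusted p = 0.126). These RNAs are targets of the depletion, so their counts are what was left after it.

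The other gene past the test was mt-Tq, the glutamine tRNA, which is encoded on the minus strand between the tRNAs for isoleucine (mt-Ti) and methionine (mt-Tm), between mt-Nd1 and mt-Nd2. It rose, with 7.91, 5.52, 8.8 and 6.7 CPM in KO-8 against 5.16, 5.2, 3.31, 3.28 and 5.42 CPM in WT-8. Every KO-8 library lay above every WT-8 library, which 5.74% of all genes tested also showed, and the log2 fold change was 0.67 (SE 0.18, edgeR adjusted p = 0.032). Without WT-8 replicate 3 or 4, or KO-8 replicate 1 or 3, the adjusted p was 0.0662 to 0.0969. With all 19 libraries in 1 edgeR fit, where 0.126% of all genes passed, it was 0.763. The sequences of mt-Tq (MT:3772-3842, minus) and its plus-strand neighbour mt-Ti (MT:3706-3774) are given with the bases that a neighbouring gene also covers in capitals: the ends of both share 3 positions on opposite strands, and the first 2 bases of mt-Ti are the last of mt-Nd1.
mt-Ti: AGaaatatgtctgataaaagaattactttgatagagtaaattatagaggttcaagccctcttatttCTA
mt-Tq: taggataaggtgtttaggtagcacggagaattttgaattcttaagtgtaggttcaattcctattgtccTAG

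The tRNAs were thinly counted, 40998 counts in all 19 libraries. Most fell on 4 plus-strand tRNAs that adjoin mt-Nd1 and mt-Nd2: mt-Tm held 30.5% of tRNA counts, mt-Ti 27.2%, mt-Tw (tryptophan) 20.3% and mt-Tl1 (leucine) 9.54%. Next came mt-Tq with 4.26%, mt-Tt (threonine) with 4.02% and mt-Tp (proline) with 2.64%. The glutamate tRNA mt-Te had 113 counts over 19 libraries. A further 14 had under 100 counts over 19 libraries, among them mt-Tk (lysine) and mt-Ts1 (serine) with 0, which allows up to 0.012 CPM (3 counts over the series, counting error only). At 8 weeks the adjusted p of mt-Tw was 0.0905, its log2 fold change was -0.41 (SE 0.14), and the values were 29, 19.9, 22 and 33.2 CPM in KO-8 against 32.4, 44.5, 34.4, 31.6 and 31.5 CPM in WT-8. The changes of mt-Ti and mt-Tl1 were -0.34 and -0.33 (adjusted p = 0.175 and 0.15), and all 3 tRNAs passed the test without KO-8 replicate 4 (adjusted p = 0.0252 for mt-Tw, 0.0411 for mt-Ti and 0.0256 for mt-Tl1). In that fit 7.2% of all genes passed, and the library left out had the largest 18S share at 8 weeks, 0.0666%. Of the nearly uncounted mRNAs, mt-Co3 had 2.22 to 2.43 CPM in KO-8 against 2.27 to 4.86 CPM in WT-8. These rest on 33 to 42 counts in a KO-8 library and 36 to 85 in WT-8. The log2 fold change was -0.68 (SE 0.20, edgeR adjusted p = 0.0519). It passed with DESeq2 (adjusted p = 0.0289), TMM factors (0.048), RLE factors (0.0494) and no filter (0.00879), against 8.91%, 8.21%, 8.26% and 5.43% of all genes. It also passed without WT-8 replicate 4 (0.0115), against 5.38%. It did not pass with limma-voom, a library size of nuclear or of all counts, thinning, all 19 libraries in 1 fit or any other library left out.

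At 16 weeks mitochondrial mRNA took a larger part of the non-rRNA counts than in any 8-week library: 28.4%, 20.8%, 25.9%, 24.7% and 35.9% in KO-16 replicates 1 to 5, against 36.7%, 37.4%, 22.1%, 38.1% and 40.3% in WT-16 replicates 1 to 5. The levels of mt-Nd2, for example, were 13107 to 38009 CPM in KO-16 and 21735 to 45095 CPM in WT-16, against 3313 to 5616 CPM in KO-8 and 3688 to 4586 CPM in WT-8. The 16-week libraries differ from the 8-week ones in the 18S left behind and in having 2 count files each, so time and library preparation or sequencing run cannot be told apart, and no test between times was made other than that of the difference in the KO effect. Of the WT-16 libraries, replicate 3 was the lowest for both rRNAs and for mt-Nd1, mt-Nd2, mt-Co1, mt-Nd4, mt-Nd5 and mt-Cytb, and it also had the smallest 18S share of its group.

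The complex I mRNA mt-Nd5 showed the widest gap between KO-16 and WT-16 among the countable mRNAs, with 27109, 12146, 19938, 21829 and 44572 CPM in KO-16 against 58913, 47696, 26530, 53182 and 58212 CPM in WT-16. Of the KO-16 libraries 3 lay below all WT-16 libraries, and replicates 1 and 5 lay above WT-16 replicate 3. Group means were 25119 ± 12128 CPM in KO-16 and 48907 ± 13296 CPM in WT-16 (SD, n = 5 each). The log2 fold change was -0.96 (SE 0.31) and did not pass the test (edgeR adjusted p = 0.0724). It did pass without WT-16 replicate 3 (-1.12, adjusted p = 0.0275) and without KO-16 replicate 5 (-1.27, adjusted p = 0.00911), fits in which 22.2% and 20.2% of all genes passed.

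The other complex I mRNAs had smaller differences. For mt-Nd2 the values were 24499, 13107, 18745, 21440 and 38009 CPM in KO-16 against 41035, 38589, 21735, 39548 and 45095 CPM in WT-16 (log2 fold change -0.68, SE 0.27, adjusted p = 0.113). For mt-Nd4 they were 16003, 8189, 13965, 12722 and 23463 CPM in KO-16 against 24501, 25927, 11761, 25619 and 30387 CPM in WT-16 (-0.67, SE 0.28, adjusted p = 0.131). For mt-Nd1 they were 41615, 33352, 40186, 34570 and 49744 CPM in KO-16 against 58548, 57410, 37165, 57395 and 56961 CPM in WT-16 (-0.42, SE 0.19, adjusted p = 0.151). In each of these genes 4 WT-16 libraries lay above every KO-16 library and the other WT-16 library, replicate 3, lay among the KO-16 libraries. All 3 passed without that library (adjusted p = 0.0372 for mt-Nd2, 0.0336 for mt-Nd4 and 0.0351 for mt-Nd1), and mt-Nd2 and mt-Nd4 also without KO-16 replicate 5 (adjusted p = 0.0179 and 0.0296). The light-strand mRNA mt-Nd6 had 848.2, 394.2, 412.1, 543.6 and 955.4 CPM in KO-16 against 744.3, 844.8, 854.6, 848.4 and 1025 CPM in WT-16 (-0.45, SE 0.23, adjusted p = 0.194, and 0.0393 without KO-16 replicate 5).

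Outside complex I, the countable mRNAs were mt-Cytb and mt-Co1. The complex III gene mt-Cytb had 52827, 24919, 34364, 37051 and 72837 CPM in KO-16 against 70645, 73701, 35076, 73209 and 81435 CPM in WT-16, a log2 fold change of -0.59 (SE 0.29, edgeR adjusted p = 0.186, and 0.0396 without KO-16 replicate 5). In mt-Co1 the groups lay together, with 120622, 115350, 131566, 118431 and 129817 CPM in KO-16 against 113003, 129481, 87361, 130941 and 130068 CPM in WT-16. Its log2 fold change was 0.06 (SE 0.18, adjusted p = 0.841) on the non-rRNA scale and -0.21 with TMM factors, so its direction depends on the scaling.

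Over the whole mitochondrial genome, 0 of 22 genes tested at 16 weeks passed an adjusted p of 0.05, against 4.26% of all 12291 genes. At an unadjusted p under 0.05 there were 10 of 22, against 29.6% of all genes. limma-voom also called 0, against 0.252% of all genes. DESeq2 called 6, against 9.4% of all genes (mt-Nd1, mt-Nd2, mt-Ti, mt-Tl1, mt-Tm and mt-Tw, all lower in KO-16). With all 19 libraries in 1 fit edgeR called 12, against 26.5% of all genes. Of these 12, mt-Co3 was higher and 11 were lower. KO-16 and WT-16 libraries overlapped for all 22, whereas 0.586% of all genes lay wholly lower in KO-16 and 2.62% wholly higher. To 2 decimals the log2 fold change was below 0 for 16 of 22, above 0 for 4 and 0.00 for mt-Tq and mt-Atp8, with a median of -0.47, while the median over all genes tested was 0.26. With TMM factors that median over all genes was 0.02 and the fold change of mt-Nd5 was -1.20 (adjusted p = 0.0891). Without the 2 male libraries 0 of 22 mitochondrial genes and 0.0827% of all genes passed, and the change of mt-Nd5 was -0.84 (adjusted p = 0.27). The tRNAs nearest to the threshold were mt-Ti (38.8 ± 6.18 CPM in KO-16 and 58.3 ± 15.1 CPM in WT-16, -0.59, SE 0.19, adjusted p = 0.0772), mt-Tm (79.7 ± 24.1 and 114.5 ± 15.3 CPM, -0.53, adjusted p = 0.097), mt-Tw (30.6 ± 10.2 and 46.9 ± 11.6 CPM, -0.62, adjusted p = 0.105) and mt-Tl1 (18.3 ± 4.82 and 25.7 ± 3.38 CPM, -0.49, adjusted p = 0.11). The tRNA of the 8-week call, mt-Tq, had 10.3 ± 4.41 CPM in KO-16 and 10.2 ± 2.6 CPM in WT-16, and mt-Tt had 10.3 ± 5.6 and 8.11 ± 1.39 CPM (0.34, SE 0.35, adjusted p = 0.507). Without KO-16 replicate 1, mt-Ti and mt-Tw passed (adjusted p = 0.0385 and 0.0286), in a fit in which 15.5% of all genes passed.

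**Figure D3:**
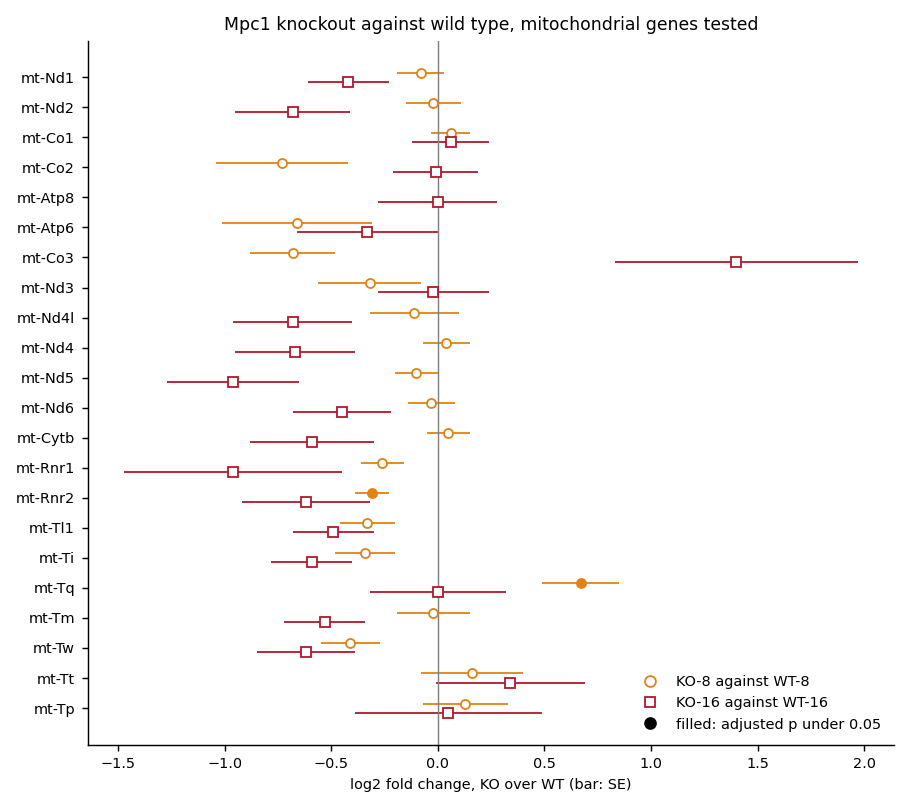
Log2 fold change of KO over WT (bar: SE) for each mitochondrial gene tested, at 8 weeks (circles) and 16 weeks (squares); filled symbols passed an adjusted p of 0.05. At 8 weeks mt-Rnr2 (-0.31) and mt-Tq (0.67) are filled, and at 16 weeks no symbol is filled although 16 of 22 lie at -0.01 or lower.

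Among the nearly uncounted mRNAs at 16 weeks, mt-Co2 had 14.6 ± 3.72 CPM in KO-16 and 14.8 ± 2.15 CPM in WT-16, and mt-Nd3 had 33.3 ± 9.85 and 33.7 ± 11.3 CPM. In mt-Atp6 the means were 9.27 and 11.7 CPM, and in mt-Nd4l 8.8 and 13.9 CPM. The gene mt-Co3 had 13.6, 11.9, 97.9, 9.64 and 12.2 CPM in KO-16 against 8.55, 13.7, 10.2, 11.4 and 11.7 CPM in WT-16, so that its log2 fold change of 1.40 (SE 0.57, adjusted p = 0.124) rested on KO-16 replicate 3. The same library had the most counts on the nuclear copies: 8092 on the mt-Co2 copy Gm28661, against 313 to 840 in KO-16 replicates 1, 2, 4 and 5 and 102 to 972 in WT-16, and 4286 on the mt-Co3 copy Gm28437, against 151 to 658 and 52 to 537. Whether those counts come from mitochondrial or nuclear RNA was not tested.

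The difference between the KO effects at 16 and 8 weeks was tested directly in 1 edgeR fit of all 19 libraries. It passed for 0 of 23 mitochondrial genes and for 0% of all 15837 genes, and limma-voom also called 0 of the mitochondrial genes. At an unadjusted p under 0.05 there were 3 of 23 (mt-Co3, mt-Nd4 and mt-Nd5), against 17.4% of all genes. For mt-Nd5 the difference of the log2 fold changes was -0.86 (SE 0.36, adjusted p = 0.251), and without KO-16 replicate 5 it was -1.17 (adjusted p = 0.0398). For mt-Co1 it was 0.00 (SE 0.18, adjusted p = 0.997).

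As a share of mitochondrial counts, which removes the nuclear RNAs from the denominator, mt-Nd5 stood at 6.12%, 3.86%, 4.92%, 4.18% and 6.52% in KO-16 against 7.64%, 7.09%, 7.18%, 7.28% and 6.82% in WT-16. Every KO-16 library lay below every WT-16 library, which 0.0385% of all genes showed on a scale where the median log2 fold change over all genes was 0.73, against 0.586% of all genes in CPM, where mt-Nd5 overlapped. The log2 fold change of the mt-Nd5 share, -0.49 (SE 0.35), did not pass edgeR's test (adjusted p = 0.28). The spread that the test estimated over all genes was wide on this scale, with a common coefficient of variation of 0.505 against 0.262 for CPM. Shares of 1 library sum to 100, so the shares of different genes are not independent of each other. Their denominator includes the rRNAs, which are targets of the depletion. These held 34.0% to 52.8% of mitochondrial counts in KO-16 and 40.3% to 52.7% in WT-16, so what the depletion left enters every share. For mt-Co1 the shares were 27.2%, 36.7%, 32.5%, 22.7% and 19% in KO-16 against 14.6%, 19.2%, 23.6%, 17.9% and 15.2% in WT-16 (log2 fold change 0.61, SE 0.32, adjusted p = 0.188, and 0.015 without WT-16 replicate 3, where 77.8% of all genes passed). Relative to mt-Co1 per kb, mt-Nd5 was at 19%, 8.92%, 12.8%, 15.6% and 29.1% in KO-16 against 44.2%, 31.2%, 25.7%, 34.4% and 37.9% in WT-16. The groups overlapped on this ratio through KO-16 replicate 5 and WT-16 replicate 3 alone.

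**Figure D4:**
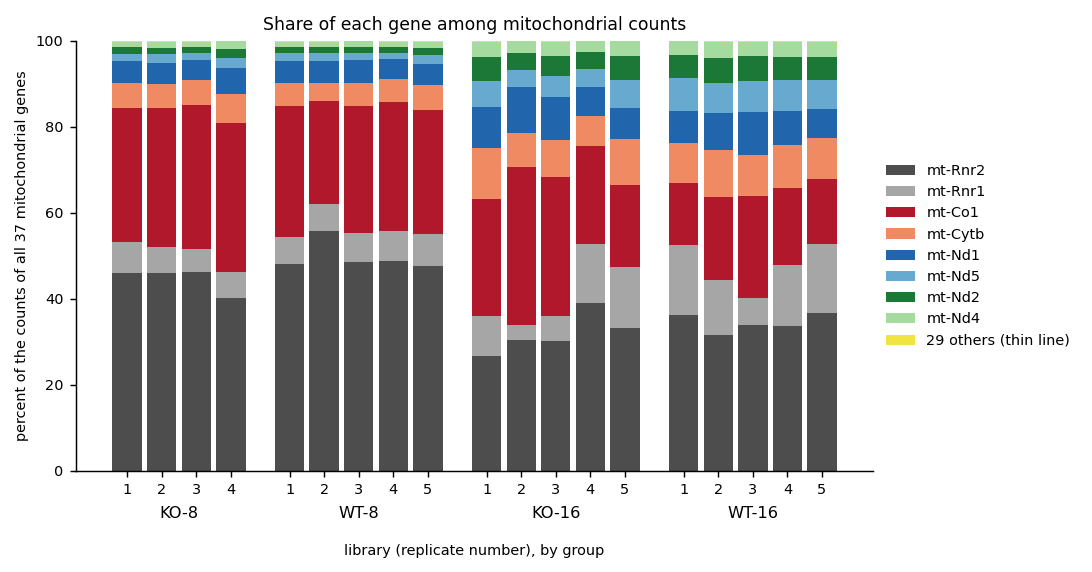
Percentage of the counts of all 37 mitochondrial genes taken by each of 8 genes in every library (stacked bars, replicate numbers on the horizontal axis), by group. The share of mt-Nd5 is 3.86% to 6.52% in KO-16 and 6.82% to 7.64% in WT-16, and both lie above the 1.63% to 2.24% in KO-8 and 1.55% to 2.02% in WT-8; the other 29 genes form a line at the top.

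In the same fit 1 of 22 mitochondrial genes passed at 16 weeks, against 5.88% of all genes on this scale: mt-Co3, with a log2 fold change of 1.97 (SE 0.48, edgeR adjusted p = 0.00279). Without KO-16 replicate 3 it was 0.57 (adjusted p = 0.461). At 8 weeks 1 of 21 passed, against 8.14% of all genes, and this was mt-Tq with a log2 fold change of 0.81 (SE 0.18, edgeR adjusted p = 0.00226). The call of mt-Tq held without each library in turn. It was lost with all 19 libraries in 1 fit, where 0.0836% of all genes passed. The share of mt-Tq was 0.00277%, 0.00239%, 0.00333% and 0.00249% of mitochondrial counts in KO-8, against 0.00177%, 0.00178%, 0.00103%, 0.00117% and 0.00203% in WT-8. The share of mt-Rnr2 at 8 weeks was 46.1%, 46.1%, 46.3% and 40.1% in KO-8, below 48.1%, 55.7%, 48.6%, 48.9% and 47.7% in WT-8, without overlap (log2 fold change -0.16, SE 0.09, adjusted p = 0.274). The share of mt-Co1 was 31.2%, 32.2%, 33.5% and 34.7% in KO-8, above 30.4%, 23.9%, 29.6%, 30.0% and 29% in WT-8 (0.20, SE 0.09, adjusted p = 0.169). On this scale 8.89% of all genes lay higher without overlap in KO-8 and 0.771% lower. The shares of mt-Rnr2 and mt-Co1 are not independent results, since rRNA is part of the denominator. It held 46.2% to 53.1% of mitochondrial counts in KO-8 and 54.3% to 62.1% in WT-8. Per kb among the 13 mRNAs, mt-Co1 had 59.3 ± 2.18% in KO-8 and 57.8 ± 1.99% in WT-8 (SD).

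At 16 weeks the levels were also set against the 18S share. The small-subunit rRNA mt-Rnr1 had 41227, 11359, 22738, 71362 and 97642 CPM in KO-16 against 124111, 86780, 23982, 103888 and 136184 CPM in WT-16, and the 3 lowest values were those of the 3 libraries with the smallest 18S shares, KO-16 replicates 2 and 3 and WT-16 replicate 3. In a fit with genotype and the 18S share, mt-Rnr1 rose by 0.089 on the log2 scale per percentage point of 18S (SE 0.013, edgeR adjusted p = 0.0282), the only call among 22 mitochondrial genes, against 0.0325% of all genes. It lost the call without WT-16 replicate 2, 3 or 5 or KO-16 replicate 2, 3 or 5 (adjusted p 0.0648 to 0.472), and with TMM factors (adjusted p = 0.106). Slopes of the others were 0.041 for mt-Rnr2 (adjusted p = 0.0938), 0.039 for mt-Nd5 (0.114), 0.034 for mt-Cytb (0.134), 0.033 for mt-Nd2 (0.12) and 0.032 for mt-Nd4 (0.138), and 0.006 for mt-Co1 (0.599). Without KO-16 replicate 4 the 6 genes mt-Rnr1, mt-Rnr2, mt-Nd5, mt-Cytb, mt-Nd2 and mt-Nd4 all passed, in a fit in which 15.9% of all genes passed. With the 18S share in the fit, the KO effect on mt-Nd5 was -0.60 (adjusted p = 0.207), on mt-Nd2 -0.38, on mt-Cytb -0.27, on mt-Rnr1 -0.28 and on mt-Co1 0.13. In the 6 libraries over 20% 18S (2 KO-16 and 4 WT-16) the effect on mt-Nd5 was -0.72 (adjusted p = 0.128), and in the 4 libraries under 20%, of which 1 was WT-16, it was -0.43.

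**Figure D5:**
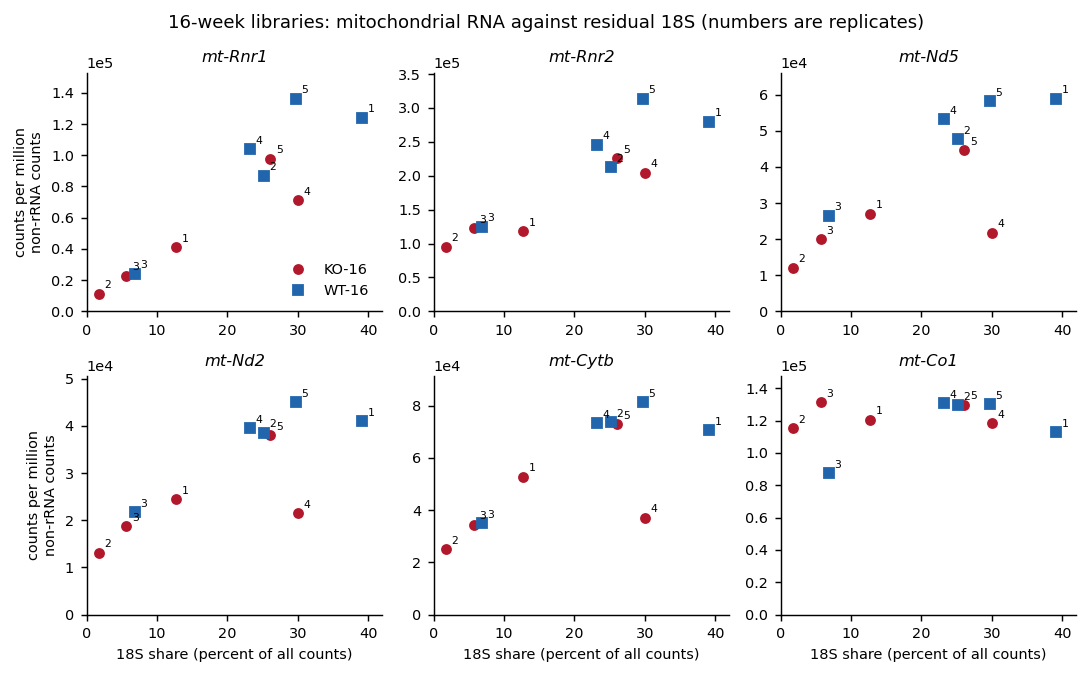
CPM over non-rRNA counts of 6 mitochondrial genes against the 18S share of all counts, in KO-16 (circles) and WT-16 (squares) libraries numbered by replicate. The 3 libraries at 1.71% to 6.88% 18S are the lowest for mt-Rnr1. KO-16 replicate 4 lies low for its 18S share of 30.0% in the panels of mt-Nd5, mt-Nd2 and mt-Cytb. In the mt-Co1 panel KO-16 replicates 2 and 3 lie with the other KO-16 libraries, and WT-16 replicate 3 is the lowest at 87361 CPM.

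The rRNAs showed the same order in their ratio. Per kb, mt-Rnr1 was at 57.8%, 19.7%, 30.7%, 57.8% and 71.5% of mt-Rnr2 in KO-16 against 73.5%, 67.7%, 31.8%, 70.0% and 71.9% in WT-16, and at 18.9% to 25.4% in every 8-week library. The 3 lowest 16-week values belonged again to KO-16 replicates 2 and 3 and WT-16 replicate 3. In the comparison of genotypes at 16 weeks, mt-Rnr1 had a log2 fold change of -0.96 (SE 0.51, edgeR adjusted p = 0.217) and mt-Rnr2 of -0.62 (SE 0.30, adjusted p = 0.177), with group means of 153452 ± 57979 CPM in KO-16 and 235231 ± 72342 CPM in WT-16.

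Nuclear genes that copy and transcribe mitochondrial DNA were set beside the mitochondrial values. Of 20 such genes 19 were tested at 8 weeks, and 1 passed, against 7.56% of all genes, which is no more than the background: Tfam, the factor that packages mitochondrial DNA and starts its transcription, rose to 40.6 ± 3.5 CPM in KO-8, against 34.0 ± 1.25 CPM in WT-8 (SD, n = 4 and 5; log2 fold change 0.25, SE 0.06, edgeR adjusted p = 0.0275). The call was lost with all 19 libraries in 1 fit, where 0.126% of all genes passed. The median log2 fold change of the list was 0.02, against 0.01 over all genes. At 16 weeks 0 of 17 passed by edgeR, DESeq2 or limma-voom, against 4.26%, 9.4% and 0.252% of all genes. At an unadjusted p under 0.05 there were 0 by edgeR, against 29.6% of all genes. There were 3 by DESeq2 and 0 by limma-voom, for which the share over all genes was not computed. Their median log2 fold change was 0.17, against 0.26 over all genes. Tfam then had 31.1 ± 5.76 CPM in KO-16 and 24.3 ± 6.54 CPM in WT-16 (0.35, SE 0.19, adjusted p = 0.236). The mitochondrial RNA polymerase Polrmt had 10.5 ± 3.7 CPM in KO-16 and 7.54 ± 2.31 CPM in WT-16 (0.48, SE 0.30, adjusted p = 0.286).

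Genes that process, modify or degrade mitochondrial RNA gave 1 call among 35 at 8 weeks, against 7.56% of all genes. Fastkd1, of a family that acts on the stability of mitochondrial RNAs, fell to 21.2 ± 1.99 CPM in KO-8, against 25.8 ± 1.79 CPM in WT-8 (log2 fold change -0.29, SE 0.08, edgeR adjusted p = 0.0359). This call was also lost with all 19 libraries in 1 fit, where 0.126% of all genes passed. Nearest to it was 1110008L16Rik (-0.33, adjusted p = 0.0571), and the median of the list was 0.01. At 16 weeks 0 of 35 passed edgeR's test or limma-voom, against 4.26% and 0.252% of all genes, and 2 passed DESeq2 (Lrpprc and Trmt5), against 9.4%. With all 19 libraries in 1 edgeR fit 5 passed (Elac2, Gtpbp3, Ptcd2, Pus1 and Rexo2), against 26.5% of all genes. With the 16-week libraries alone 5 had an unadjusted p under 0.05, against 29.6% of all genes, and the median log2 fold change was 0.22. The smallest adjusted p was that of Elac2, which trims the 3' ends of tRNAs, with 14.9 ± 4.42 CPM in KO-16 and 9.2 ± 1.66 CPM in WT-16 (0.69, SE 0.23, adjusted p = 0.0805). Next was the tRNA pseudouridine synthase Pus1, with 6.06 ± 2.78 and 2.79 ± 1.31 CPM (1.07, SE 0.39, adjusted p = 0.0956). Of 10 nuclear copies of mitochondrial sequence 10 were tested at 16 weeks and 8 at 8 weeks. At both times 0 passed by edgeR, DESeq2 or limma-voom. Over all genes these called 4.26%, 9.4% and 0.252% at 16 weeks, and 7.56%, 8.91% and 7.43% at 8 weeks. By edgeR 1 copy at each time had an unadjusted p under 0.05, against 29.6% of all genes at 16 weeks and 22.5% at 8 weeks. Their median log2 fold change was 1.25 at 16 weeks and -0.28 at 8 weeks, against 0.26 and 0.01 over all genes. Their counts were uneven between libraries: Gm13340, the copy of mt-Co1 on chromosome 2, had 258 to 752 counts in KO-8 against 535 to 837 in WT-8 replicates 1 to 4 and 10252 in WT-8 replicate 5.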

How the data were processed

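The values used were counts of read pairs per gene as deposited by the authors, made on GRCm38 and Ensembl 96 genes with featureCounts 1.6.3 (pairs counted, reverse strand, each pair to the gene it overlapped most), per the file headers. Cutadapt 1.16, STAR, RSEM, FastQC and SAMtools are also named in the submitters' processing notes. RNA was depleted of cytoplasmic and mitochondrial rRNA and read at both ends, per the labels' protocols. The 2 files of each 16-week sample were summed.

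CPM are per 1000000 counts outside 356 rRNA genes, with no further factor (3.74 to 24.0 M, or mega, such counts in a library). Tests used edgeR 4.0.16 in R 4.3.3 (quasi-likelihood, filterByExpr, each time point alone, Benjamini-Hochberg adjustment over all genes tested, threshold 0.05). The share fits used the counts of the 37 mitochondrial genes as library size, and the 18S fit added the percentage of CT010467.1. The SE of a log2 fold change is its size divided by the root of the F statistic. Intervals and floors cover counting error only. Sequences and windows came from GENCODE M21 transcripts, searched with blastn 2.17.0 and exact matching (141730 nuclear transcripts). Alternatives included DESeq2 1.42.0 and limma 3.58.1 voom. In simulated data for 12291 genes at 16 weeks, 11.9%, 47.8% and 87.9% of genes changed 1.5-, 2- and 4-fold were called, with 4 false calls in 102, and for 15159 genes at 8 weeks 74.6%, 94% and 100%, with 11 in 190. The members, gene lists and tests were chosen with earlier results of these data known. Named in full were the mRNAs, the rRNAs and tRNAs of at least 10 CPM in a group, and up to 4 genes of each nuclear list by adjusted p; mt-Tp, mt-Te, mt-Tk, mt-Ts1, Lrpprc, Trmt5, Gtpbp3 and Acta1 were named after their values were seen. All 19 libraries were used.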

Additional observations from a re-analysis of the deposited data

Results flagged for a closer look

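In 92 groups of 4 or 5 libraries, 7 values lay far from the rest of their group by Dixon's criterion, which chance gives in about 1 in 20 groups. In KO-16, replicate 3 had 97.9 CPM of mt-Co3. In WT-16, replicate 3 had 37165 CPM of mt-Nd1, 21735 CPM of mt-Nd2 and 35076 CPM of mt-Cytb, and its mitochondrial mRNA was 22.1% of non-rRNA counts, each the lowest of the group. Also in WT-16, replicate 1 was low for mt-Ti (31.3 CPM). In WT-8, replicate 2 was high for mt-Tw (44.5 CPM).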

How the results depend on the processing

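No paired analysis was possible because the labels give no replicate numbers that the groups share. At 16 weeks the count of mitochondrial genes past the test was 0, against 4.26% of all genes. It was 1 with RLE factors (mt-Ti, against 2.83%) and 1 with all counts as library size (mt-Co3, against 6.8%). It was 6 with DESeq2 (against 9.4%) and 3 without a filter (mt-Co3, mt-Nd5 and mt-Ti, against 5.51%). With all 19 libraries in 1 fit it was 12 (against 26.5%). In that fit with TMM factors, chosen after the data were seen, it was 11 (against 19.3%). Leaving out 1 library gave 0 to 7 (4 without WT-16 replicate 3, 2 without KO-16 replicate 1 and 7 without KO-16 replicate 5). In those fits 22.2%, 15.5% and 20.2% of all genes passed. At 8 weeks the count was 2, against 7.56% of all genes. It was 3 with TMM factors, RLE factors or DESeq2 (mt-Co3 added), against 8.21%, 8.26% and 8.91% of all genes. Without a filter it was 7, against 5.43%. With 1 library left out it was 0 to 4, in fits where 5.14% to 7.2% of all genes passed. It was 0 with all 19 libraries in 1 fit, also with TMM factors. In the 19-library fit 0.126% of all genes passed, and 0.199% with TMM factors. The difference between times gave 0, and 0 to 1 with 1 library left out (1 without KO-16 replicate 5, where 4.48% of all genes passed). The share at 16 weeks gave 1, against 5.88% of all genes. It gave 0 with limma-voom, the 18S covariate or libraries over 20% 18S, against 6.86%, 3.33% and 15.3% of all genes. With all 19 libraries it gave 2, against 30.7%. With 1 left out it gave 0 to 5. These were 0 without KO-16 replicate 3, where 1.92% of all genes passed, and 5 without WT-16 replicate 3, where 77.8% passed. The share at 8 weeks gave 1, against 8.14% of all genes. It gave 2 with the 13 mRNAs as denominator (mt-Tq and mt-Tw, against 3.63%), 0 with all 19 libraries (against 0.0836%), and 1 in each fit that left 1 out. The 18S term gave 1, and 0 with the nuclear library size or TMM factors, and 0 to 6 with 1 left out (6 without KO-16 replicate 4, where 15.9% of all genes passed). The causes were not tested. No value past the test turned its direction under any alternative run. At 16 weeks 15 tRNAs fell below the filter on low counts and were not tested. Thinning to the smallest library left 0 calls at 16 weeks (against 6.06% of all genes) and 2 at 8 weeks (against 7.24%). The common coefficient of variation was 0.262 at 16 weeks and 0.095 at 8 weeks.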
